A study of Drosophila melanogaster with 48 samples.

Results

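The nuclear genes for the 5 complexes of oxidative phosphorylation were followed in the abdominal fat body of adult female Drosophila melanogaster on 2 diets around the day. The genes were chosen by symbol alone, as those named ND- (complex I), SdhA to SdhD (complex II), UQCR- (complex III), COX4 to COX8 (complex IV) or ATPsyn (complex V). This gave 84 of the 14205 gene rows, with 40 in complex I, 4 in complex II, 9 in complex III, 16 in complex IV and 15 in complex V. After a filter on low counts 65 of them were tested (33, 4, 7, 10 and 11 by complex), beside 10070 genes in all.

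All flies were mated females of the w1118 (iso31) strain, about 3 days old when placed on a diet and about 8 days old at dissection, so the background allele and the mating were shared by every group. Control flies had food of 15% sucrose and yeast and restricted flies had food of 5%, for 5 days at 25 °C, in days of 12 h light and 12 h dark. Each library held tissue pooled from about 10 flies, with oenocytes and epidermis attached, and organs such as the ovaries, intestine and Malpighian tubules had been cut away. Libraries were made every 2 h over 24 h, from ZT2 to ZT24 (zeitgeber time, ZT, counts hours from lights on), with replicates numbered 1 and 2 at each time. These 12 times gave 48 libraries in 4 sets of 12, a replicate series 1 and a replicate series 2 on each diet. The submitters call the replicates biological, but the labels do not say what the numbers share, and p-values measure the spread between these libraries.

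In oxidative phosphorylation, complexes I and II pass electrons from NADH and from succinate to ubiquinone, complex III passes them to cytochrome c, and complex IV passes them to oxygen. Complexes I, III and IV pump protons across the inner mitochondrial membrane, and complex V, the ATP synthase, uses the returning protons to make ATP. Most subunits are encoded in the nucleus, a few in the mitochondrial genome, and complex II is wholly nuclear. In the fly the fat body stores fat and glycogen and carries out much of the intermediary metabolism, and several subunit genes have paralogs (often with a symbol ending in L) known for expression in the testis.

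Abundance was compared per transcript length, in the deposited TPM (transcripts relative to the library's total), as each gene's median over the 48 libraries. The median tested gene of complex II was lowest, at 97.5 TPM, followed by complex I at 191 TPM, complex III at 452 TPM, complex V at 550.2 TPM and complex IV at 661 TPM. In complex I the levels lay close together: 29 of 33 genes were within 2-fold of the complex's median. The accessory subunit ND-18, the lowest at 88.4 TPM, was below that band. Above the band were ND-B12 at 397 TPM, ND-AGGG at 515 TPM and, highest, ND-MLRQ at 1287 TPM. ND-MLRQ is the counterpart of human NDUFA4 (which in mammals was later assigned to complex IV). Complex II ran from SdhA, the flavoprotein that oxidises succinate, at 64.3 TPM to the membrane anchor SdhC at 257 TPM.

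The highest level of any member was that of ATPsynC, the subunit of the proton-driven rotor ring, at 2232 TPM. ATPsynbeta, the catalytic subunit, stood at 1513 TPM, and the lowest tested gene of complex V, the peripheral stalk subunit ATPsynB, still reached 413 TPM. The rotor ring and the catalytic head each hold several copies of these proteins. In complex III the highest gene was UQCR-14, at 620.5 TPM, and in complex IV it was COX7B, at 889 TPM. The lowest tested genes of those complexes were paralogs, UQCR-11L at 2.42 TPM and COX6AL at 2.07 TPM.

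**Figure D1:**
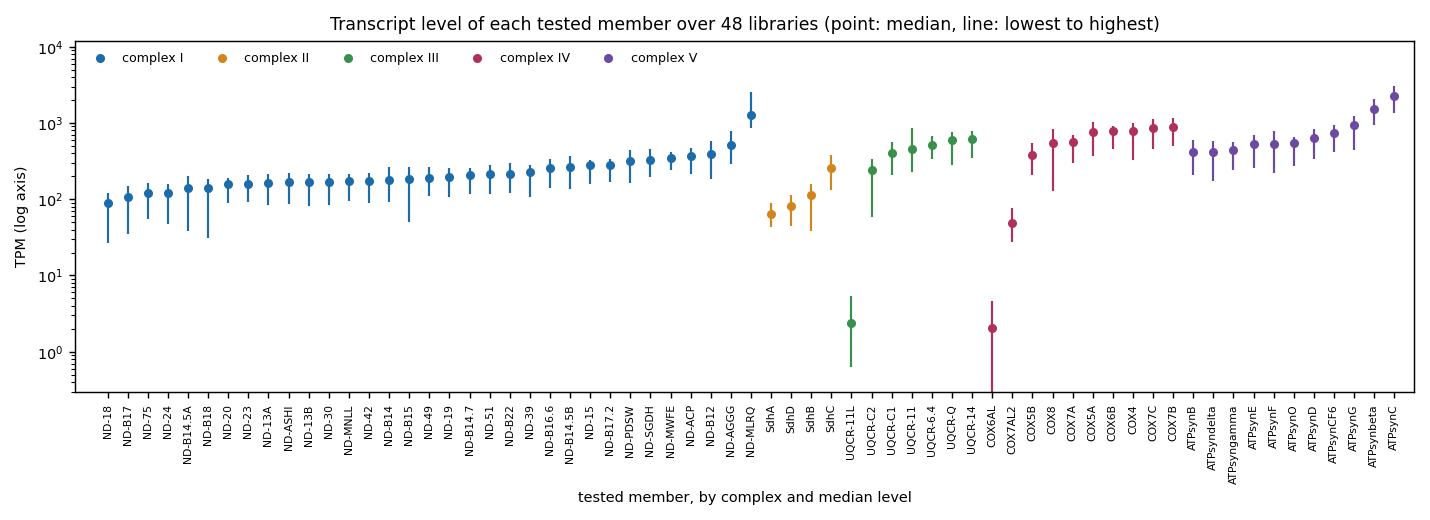
Level of each tested nuclear gene, by complex; the y axis is TPM on a log scale, each point a gene's median over 48 libraries, and the line its lowest to highest library (that of COX6AL runs below the axis). Genes of complex II lie low, ATPsynC (2232 TPM) is highest, and UQCR-11L (2.42 TPM) and COX6AL (2.07 TPM) stand far below the rest.

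The 19 members that failed the low-count filter were 18 paralogs with an L in the symbol suffix and ND-B8. They were ND-20L, ND-24L, ND-49L, ND-51L1, ND-51L2, ND-B14.5AL, UQCR-14L, UQCR-6.4L, COX4L, COX5BL, COX6AL2, COX6CL, COX7AL, COX7CL, ATPsynbetaL, ATPsynCF6L, ATPsynepsilonL and ATPsynGL. Their medians lay between 0 and 0.80 TPM, and no library exceeded 2.14 TPM, a value of UQCR-6.4L. ND-20L, ND-24L, ND-B14.5AL and ATPsynCF6L were listed at 0 in all 48 libraries, and ND-B8 in 29. Of a list of testis markers, 5 of 14 passed the same filter.

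Before the comparisons, the libraries themselves differed. Total estimated counts ran from 5815484 to 33485917, and in the restricted series 1 library of ZT2 ribosomal RNA rows took 53.81% of the counts. All 25 ovary markers passed the filter although ovaries had been removed, and their mean log2 CPM (counts relative to the library's scaled total) had medians of 4.59 in control series 1, 3.75 in control series 2, 4.2 in restricted series 1 and 0.33 in restricted series 2. Their ranges over the 12 libraries of each set were 1.31 to 7.24, 1.48 to 6.00, −0.53 to 5.44 and −1.07 to 3.91. Muscle markers had set medians of 7.01, 7.14, 7.17 and 7.48 in the same order.

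On the restricted diet 13 of the 65 members rose and none fell (edgeR quasi-likelihood test with time as a factor, Benjamini-Hochberg adjusted over all genes), where 10.4% of all genes tested rose and 15.4% fell. This was 20% of the members, and in the most abundant 10% of all genes, which held 34 of them, 21.0% rose. The 13 were 7 genes of complex I, 2 each of complexes III, IV and V, and none of complex II. The estimates of all 65 lay above 0, with a median of 0.26 on the log2 scale, or 1.19-fold, against 0.01 over all genes. The medians by complex were close to each other: 0.26 in complex I, 0.20 in complex II, 0.25 in complex III, 0.29 in complex IV and 0.23 in complex V. No test between complexes was made. With scores of the ovary and gut markers in the model the members' median was −0.10 and none was called, and in that fit 0.308% of all genes were. Ovary markers differed by diet as well, with 12 of 25 lower and none higher, and among muscle markers 8 of 23 were higher and 1 lower. Of the markers of cell types left in the dissected tissue, 7 of 9 oenocyte markers were higher, with a median of 0.28, and 3 of 8 epidermis markers. In the same comparison 3 of 13 hemocyte and 2 of 9 neuron markers were higher, 1 of 10 fat body markers was higher and 1 lower, 2 of 27 gut markers were lower, and none of 8 Malpighian tubule markers was called (1 at an unadjusted p under 0.05). Mean log2 CPM of the oenocyte markers had medians of 9.72 and 9.69 in control series 1 and 2, and of 9.93 and 10.08 in restricted series 1 and 2. The part of these markers in the result was not tested further, and in bulk tissue fewer cells of a type and less RNA per cell cannot be told apart.

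UQCR-11, a small subunit of complex III, had the smallest diet p of any member. In CPM its lowest, median and highest values were 73.6, 96.4 and 124 in control series 1 and 75.4, 85.1 and 104 in control series 2. On the restricted diet they were 79.9, 105 and 170.3 in series 1 and 103, 138 and 161 in series 2. In series 2 the diets barely overlapped, while in series 1 they overlapped broadly. The diet change was 0.41 ± 0.07 (log2, SE; edgeR adjusted p = 0.00111). UQCR-6.4, another small subunit of complex III, changed by 0.31 ± 0.08 (adjusted p = 0.0107), and its median moved from 67.8 to 97.6 CPM in series 2 but from 69.6 to 72.8 CPM in series 1.

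In complex I the smallest diet p belonged to ND-MLRQ, at 0.38 ± 0.07 (adjusted p = 0.0013). Its lowest, median and highest CPM were 183, 244 and 319 in control series 1, 192, 235 and 292 in control series 2, 206, 270.3 and 455 in restricted series 1 and 258, 328 and 412 in restricted series 2. The 2 control sets lay at the same level, and both restricted sets overlapped them. ND-AGGG, an accessory subunit, had the largest diet change of any member, 0.45 ± 0.09 (adjusted p = 0.00209), with control medians of 118 and 127 CPM and restricted medians of 139 and 193 CPM. ND-49, a core subunit near the ubiquinone site, changed by 0.28 ± 0.06 (adjusted p = 0.00425). In this fit it was the only one of the 7 nuclear core subunits (ND-75, ND-51, ND-49, ND-30, ND-24, ND-23 and ND-20) to be called, beside 6 of 26 accessory subunits: ND-13A, ND-15, ND-AGGG, ND-MLRQ, ND-MNLL and ND-MWFE.

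In complex IV the genes called were COX7AL2, at 0.37 ± 0.10 (adjusted p = 0.012), and COX7B, at 0.29 ± 0.11 (adjusted p = 0.0483). COX7AL2 is a low paralog, with set medians between 5.63 and 7.93 CPM, and its 4 sets overlapped. In complex V they were the 2 most abundant genes, ATPsynbeta at 0.21 ± 0.07 (adjusted p = 0.0276) and ATPsynC at 0.22 ± 0.08 (adjusted p = 0.0473). ATPsynC had medians of 1526 and 1760.3 CPM in control series 1 and 2, and of 1663 and 2221 CPM in the restricted series 1 and 2. COX7B and ATPsynC were each called in 21 of 48 fits that left out 1 library, while 8 of the 13 were called in all 48. Without the restricted series 2 library of ZT2 the count was 8, and ATPsynbeta and ND-15 were among those lost.

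None of the 4 genes of complex II passed the threshold for diet in this fit, while the DESeq2 test called SdhC and SdhD higher. SdhD, an anchor, had 0.27 ± 0.11 (adjusted p = 0.0609), and SdhC had 0.39 ± 0.16 (adjusted p = 0.062). SdhA had 0.10 ± 0.07 (adjusted p = 0.274) and SdhB, the iron-sulfur subunit, had 0.12 ± 0.18 (adjusted p = 0.631). The latter pair had negative estimates, −0.01 and −0.02, when TPM were fitted instead of counts.

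The genes called for diet did not stand out by the size of the change. Their diet estimates ran from 0.21 to 0.45 with a median of 0.29, and those of the other 52 members from 0.07 to 0.39 with a median of 0.25. Their standard errors were smaller, with a median of 0.08 against 0.15. Their difference between the replicate series was smaller as well, with a median log2 difference of 0.24 against 0.80. The diet model holds no replicate term, so that a gene's difference between the series enters its standard error. Which genes and complexes were called depends on this choice. With the replicate number as a block 55 members were called higher, where 16% of all genes were, and SdhA, SdhC and SdhD were among them.

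**Figure D2:**
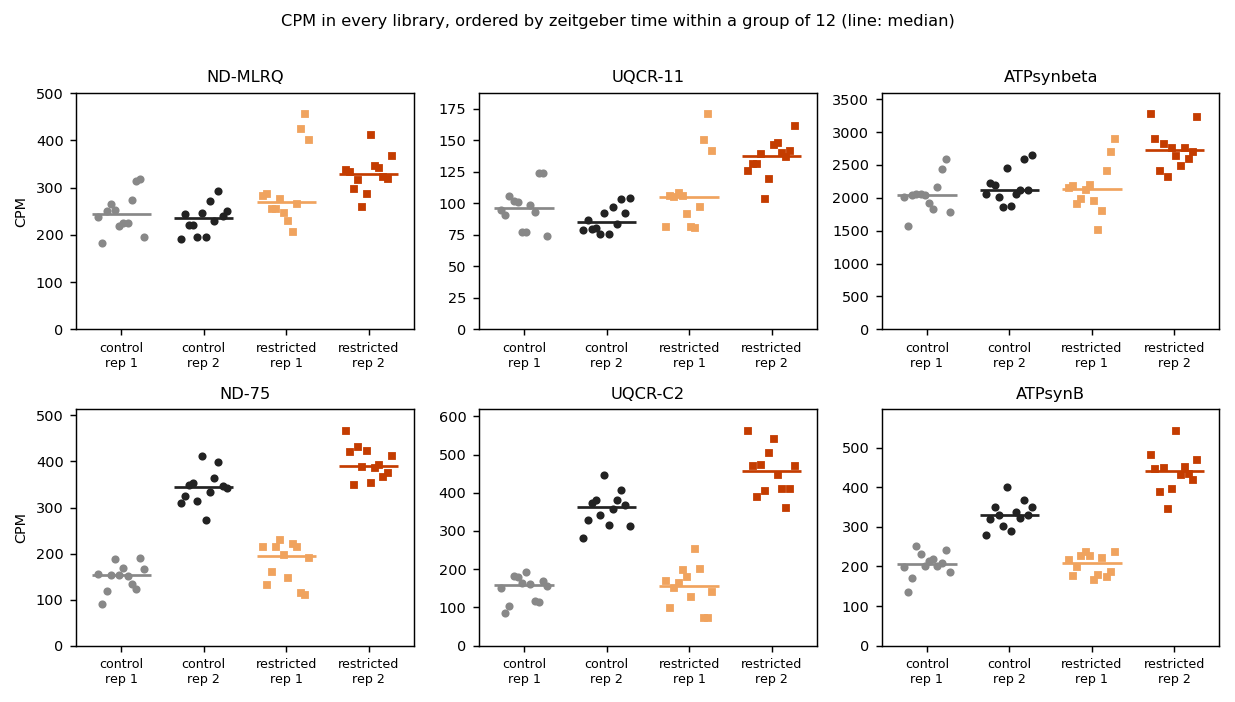
CPM of 6 genes in each of the 48 libraries; the y axis is CPM from 0, the x axis the 4 sets of 12 libraries (diet and replicate number), with points in order of zeitgeber time and the line at the set's median. In ND-MLRQ, UQCR-11 and ATPsynbeta the control sets lie at one level and 3 late restricted libraries of replicate 1 stand high, while in ND-75, UQCR-C2 and ATPsynB replicate 2 lies above replicate 1 on both diets.

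The diet estimates were larger in series 2 than in series 1. Within series 1 none of the 65 members was called (edgeR, same table), where 0.417% of all genes were; 8 had an unadjusted p under 0.05, the smallest adjusted p was 0.119, and the median was 0.09 on the log2 scale. Within series 2, 56 members rose and none fell, where 18.6% of all genes rose, and the median was 0.36, or 1.28-fold. By complex, 29 of 33 genes rose in complex I, 2 of 4 in complex II, 6 of 7 in complex III, 8 of 10 in complex IV and all 11 in complex V. Among the 25 ovary markers the series 2 sets differed most, with medians of 3.75 on the control and 0.33 on the restricted diet. Within series 2, 18 of the 25 were lower on the restricted diet, and 8 of 9 oenocyte markers were higher.

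The difference between the 2 diet effects was tested as an interaction. For 8 members the diet effect was higher in series 2 and for none lower, where 4.86% of all genes were called higher, and 28 had an unadjusted p under 0.05. They were ND-B14, ND-SGDH and ND-MWFE of complex I, UQCR-11 and UQCR-6.4 of complex III, COX7C and COX5B of complex IV, and ATPsynB of complex V. The members' median was 0.27 on the log2 scale, against 0.00 over all genes. With the ovary and gut scores in the model none was called, where 2.29% of all genes were higher. With the DESeq2 test 19 were, where 8.03% of all genes were higher.

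ND-B14, an accessory subunit of complex I, gave the largest of these estimates, 0.49 ± 0.13 (adjusted p = 0.0174). Its lowest, median and highest CPM were 27.5, 42.1 and 56.7 in control series 1 and 32.8, 45.5 and 60.7 in restricted series 1. In series 2 they were 55.9, 64.3 and 74.1 for control flies and 74.8, 94.1 and 114 for restricted flies. The diets overlapped almost wholly in series 1 and not at all in series 2. Among all members such a separation by diet was found in series 2 for ND-B14 and the acyl carrier protein ND-ACP (2 of 65, with 0.298% of all genes), and in series 1 for none.

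COX7C, a small nuclear subunit of complex IV, had an interaction of 0.48 ± 0.13 (adjusted p = 0.016). Its medians were 187 and 194 CPM on the control and restricted diets in series 1, and 215 and 299.8 CPM in series 2. For UQCR-11 the interaction was 0.47 ± 0.12 (adjusted p = 0.0112) and for ATPsynB 0.41 ± 0.11 (adjusted p = 0.019). ATPsynB stood at 205 and 207 CPM in series 1 and at 329 and 439.9 CPM in series 2. In each of these genes the medians of the 2 diets lay close together in series 1 and apart in series 2.

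**Figure D3:**
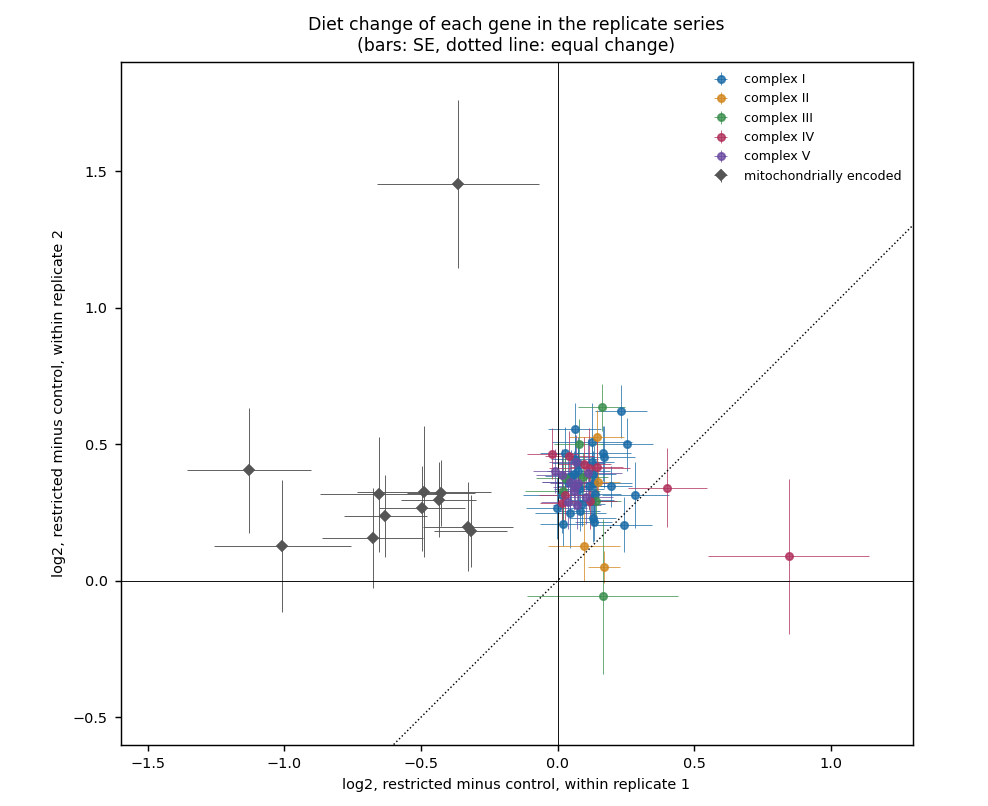
Diet change (restricted minus control, log2, with SE bars) of each tested gene within replicate series 1 on the x axis and within series 2 on the y axis, coloured by complex; diamonds are mitochondrial-encoded genes and the dotted line marks equal change. Nuclear genes cluster above the line, with medians of 0.09 in series 1 and 0.36 in series 2, and mitochondrial-encoded genes lie left of 0.

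By time of day, the median diet difference of the members was positive at 10 of 12 times. It was highest at ZT2, at 0.48 on the log2 scale, and below 0 at ZT20 (−0.12) and ZT22 (−0.16). All 5 complexes had their lowest value at ZT22, from −0.11 in complex II to −0.21 in complex V, and their highest at ZT2. In series 1 the median was positive at 8 times and in series 2 at all 12. In complex I, for example, the ZT22 value was −0.55 in series 1 and 0.19 in series 2, each from 1 library per diet.

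No member had a rhythm over 24 h that passed the test. In edgeR fits of a cosine and a sine, 0 of 65 were called on the control diet, on the restricted diet and for the difference between diets, where 1.34%, 1.15% and 0.0199% of all genes were. DESeq2 called 0 in each as well. Unadjusted p-values under 0.05 numbered 0, 2 and 0. In the edgeR fit of the restricted diet the pair was ND-MLRQ (unadjusted p = 0.00476, adjusted p = 0.185) and UQCR-11 (unadjusted p = 0.0341, adjusted p = 0.481). Fitted amplitudes had medians of 0.11 and 0.09 on the log2 scale on the control and restricted diets. The highest were those of COX6AL, the low paralog, at 0.50 and 0.45.

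**Figure D4:**
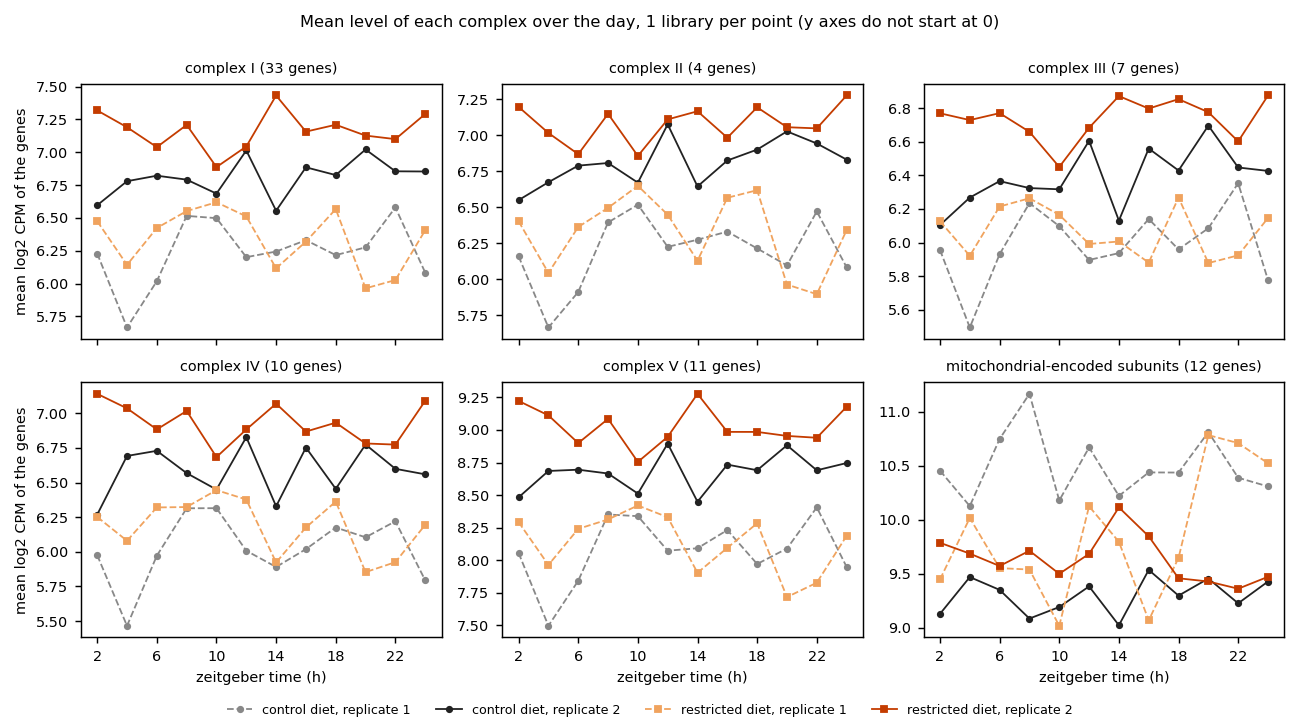
Mean log2 CPM of the tested genes of each complex, and of the mitochondrial-encoded genes, against zeitgeber time in hours; each point is 1 library, with 1 line for each diet and replicate series. In the 5 nuclear panels the replicate 2 lines lie above the replicate 1 line of the same diet at nearly all times, and the restricted replicate 1 line dips at ZT20 and ZT22, where that of the mitochondrial-encoded genes is high.

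The difference between the replicate series was larger than that between the diets. In series 2, 61 of 65 members were higher than in series 1 and none lower (edgeR, adjusted over all genes), where 23.3% of all genes were higher and 34.1% lower. The median was 0.71 on the log2 scale, or 1.63-fold, against −0.10 over all genes. All genes of complexes II (4) and V (11) were higher, with 32 of 33 in complex I, 9 of 10 in complex IV and 5 of 7 in complex III. Complex V had the highest median, at 0.86, and complex III the lowest, at 0.48, with 0.66 in complex I, 0.71 in complex II and 0.63 in complex IV. On the control diet alone 52 members were higher, where 16.9% of all genes were, and on the restricted diet alone 61, where 20.8% were. Markers of other cell types differed between the series as well. All 8 Malpighian tubule markers were lower in series 2, with a median of −0.91, as were 20 of 25 ovary markers, with a median of −2.14, and 12 of 27 gut markers, with a median of −0.90. Of muscle markers 12 of 23 were higher and 2 lower, and of hemocyte markers 8 of 13 were higher and 2 lower. Their part in the members' difference was not tested beyond the fits with marker scores. In those, 56 (ovary and gut) and 59 (muscle) members were higher, where 18.3% and 21.6% of all genes were.

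ND-75, the largest core subunit of complex I, showed the difference with the smallest p of any member. Its lowest, median and highest CPM were 89.7, 153 and 191 in control series 1 and 109.9, 194 and 229 in restricted series 1. In series 2 they were 273, 344 and 411 for control flies and 348, 389.9 and 466 for restricted flies. Every series 2 library was above every series 1 library on both diets. The estimate was 1.19 ± 0.07 (edgeR adjusted p = 5.86e-15), and ND-39, an accessory subunit, had 0.98 (adjusted p = 1.67e-14).

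UQCR-C2, one of the core proteins of complex III, had the largest estimate, 1.46 ± 0.10 (adjusted p = 3.81e-14). Its medians were 158 and 157 CPM in series 1 on the control and restricted diets and 363 and 458 CPM in series 2. Its partner UQCR-C1 had 0.97 (adjusted p = 4.8e-14), with medians of 361 and 398 CPM in series 1 and 622 and 764 CPM in series 2. The small subunits of the same complex differed less, from 0.09 in UQCR-11 to 0.71 in UQCR-Q. Within complex III the estimates thus ran over a wider range than in the other complexes, from −0.34 in UQCR-11L upward.

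In complex IV the largest differences were those of COX8, at 1.14, and of COX5A, at 1.03 (adjusted p = 3.81e-14), and COX4 had 0.94 (adjusted p = 1.25e-13). COX5A stood at 193 and 233 CPM in series 1 and at 358 and 462 CPM in series 2, with no overlap between series on either diet. In complex V the membrane subunit ATPsynF had the largest, at 1.1, the peripheral stalk subunit ATPsynB 0.90 (adjusted p = 1.62e-14) and the central stalk subunit ATPsyngamma 0.88 (adjusted p = 1.11e-13). ATPsynbeta, the catalytic subunit, had 0.23, the lowest of its complex. In complex II the difference was 0.95 in SdhB and 0.34 in SdhA.

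The 4 members not called were ND-MLRQ at 0.04, COX7AL2 at 0.05, UQCR-11 at 0.09 and UQCR-11L at −0.34, and the first 3 of these were among the genes called for diet. When log2(TPM + 1) was fitted with limma, which moved the median of all genes by −0.15, these 4 were called lower in series 2, and 53 members were called higher. In that fit 66.5% of all genes were called and 9.02% were higher. Counted by separation, 28 members on the control diet had all series 2 libraries above all those of series 1, where 1.69% of all genes had, and 48 members on the restricted diet, where 3.2% had. On the restricted diet the 48 were 24 genes of complex I, 3 of complex II, 4 of complex III, 7 of complex IV and 10 of complex V.

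**Figure D5:**
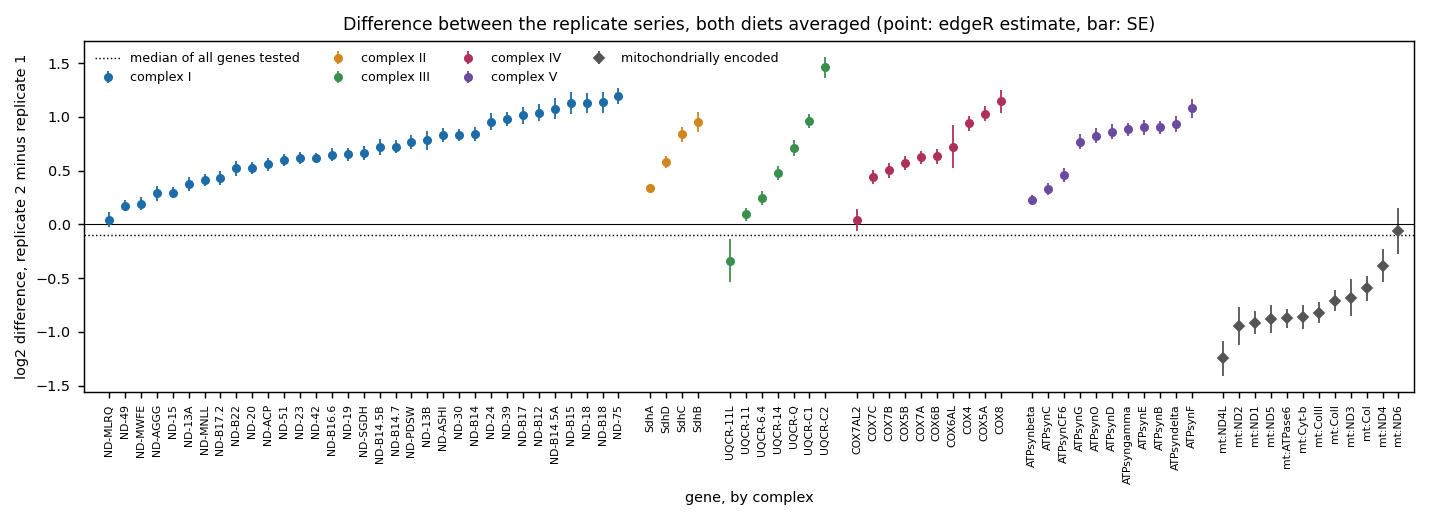
Log2 difference of replicate series 2 minus series 1 for each tested gene, by complex; points are edgeR estimates, bars SE, and the dotted line the median of all genes (−0.10). Nuclear genes lie above 0 except UQCR-11L (−0.34), UQCR-C2 (1.46) is highest, and the mitochondrial-encoded genes (diamonds) lie below 0.

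The mitochondrial-encoded subunits went the other way between the series. Of 12 tested, 11 were lower in series 2 and none higher, where 34.1% of all genes were lower. Their median was −0.84, or 1.79-fold lower, and the exception was mt:ND6, at −0.06. Their summed level had medians of 78027 TPM in control series 1, 32039 in control series 2, 57120 in restricted series 1 and 33289 in restricted series 2. Over the same sets the summed level of the 84 nuclear genes had medians of 21788, 26644, 23741 and 30740.3 TPM. For diet over both series none of the 12 was called by edgeR, with 2 at an unadjusted p under 0.05. Within series 1 all 12 diet estimates were below 0, with a median of −0.49 and 2 called lower. There 0.417% of all genes were called in either direction. Within series 2 all 12 were above 0, with a median of 0.28 and 2 called higher, where 18.6% of all genes rose. For 9 of the 12 the diet effect was called higher in series 2 than in series 1, where 4.86% of all genes were.

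Set by complex, the mean log2 CPM of the mitochondrial-encoded genes minus that of the nuclear genes therefore differed by series. In complex I its median was 2.62 in control series 1 and 0.75 in control series 2, and the ranges of these sets, 1.98 to 3.20 and 0.49 to 0.91, did not overlap. On the restricted diet it was 1.5 in series 1 and 0.84 in series 2, and those ranges did overlap. Complexes III, IV and V, with 1, 3 and 1 mitochondrial-encoded genes, gave control medians of 7.27, 6.99 and 3.89 in series 1 and of 5.58, 5.46 and 2.07 in series 2. The order of the 4 medians was not the same in every complex, but both series 2 medians were below both series 1 medians in each. In complexes III, IV and V the range of restricted series 1 overlapped that of control series 2.

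Within series 1 of the restricted diet, the libraries of ZT20, ZT22 and ZT24 stood apart in some members. In 5 of 65 members all 3 were above the other 9, where 3.23% of all genes were: ND-MLRQ, ND-AGGG, ND-49, UQCR-11 and ATPsynbeta, which are all among the genes called for diet. ND-MLRQ had 423, 455 and 400.2 CPM at these times and 206 to 286 CPM at the others. UQCR-11 had 150.0, 170.3 and 141 CPM and 79.9 to 108 CPM, and ATPsynbeta had 2403, 2699 and 2897 CPM and 1506 to 2192 CPM.

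Most members did the opposite at ZT20 and ZT22. In 37 of 65 members the ZT20 and ZT22 libraries were below the other 9, where 9.2% of all genes were. UQCR-C2 had 72.8 and 73.6 CPM there, and 98.5 to 254 CPM in the 9 libraries. ND-75 had 114 and 109.9 CPM, and 132 to 229 CPM in the 9. At ZT24 UQCR-C2 had 140 CPM and ND-75 had 191 CPM, within their ranges in the 9. With the 3 libraries left out, a choice made after these values were seen, 38 members were called higher for diet, all 13 among them, where 13.5% of all genes were higher, and the median was 0.34.

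Each member was also correlated with the mean of the other tested genes of its complex, over the 24 libraries of a series. Those of series 1 include the restricted libraries of ZT20, ZT22 and ZT24, so these correlations are not independent of the values above. In series 1, 56 members had a Pearson r of at least 0.5, and their median r was 0.875 there and 0.952 in series 2. The choice by series 1 values raises the series 1 median. The remaining 9 had an r under 0.5 in series 1, a limit chosen after the values were seen: ND-49, ND-AGGG, ND-MLRQ, UQCR-11, UQCR-11L, UQCR-C2, COX6AL, COX7AL2 and ATPsynbeta. ND-MLRQ had 0.06 in series 1 and 0.963 in series 2, and UQCR-11 had 0.02 and 0.842. Of the 9 genes 6 were called for diet, and of the other 56 members 7 were, where 10.4% of all genes rose. The 9 include the low paralogs UQCR-11L (2.42 TPM) and COX6AL (2.07 TPM). The genes compared share libraries, which differ in diet, depth and marker levels, and these correlations are descriptions.

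Genes around the complexes were read from lists, and no test of a list was made. For these and the lists of the next paragraph, 10.4% of all genes tested rose on the restricted diet and 15.4% fell. Between the series, 23.3% of all genes were higher in series 2. Of 9 other nuclear subunits and electron carriers with symbols outside the rule, 1 rose on the restricted diet, ox of complex III at 0.26 (adjusted p = 0.0322), and 1 fell, Dhod, the dihydroorotate dehydrogenase that feeds electrons to ubiquinone, by 0.12 (adjusted p = 0.049). The complex V gene sun had 0.32 (adjusted p = 0.114). For the series 7 of the 9 were higher in series 2, with levy, a complex IV subunit, at 1.36 and RFeSP, the Rieske iron-sulfur protein of complex III, at 1.33. Of 17 assembly factors 2 rose, Ttc19 (complex III) at 0.41 (adjusted p = 0.00111) and Nubpl (complex I) at 0.21 (adjusted p = 0.00575), and Scox, for complex IV, had −0.13 (adjusted p = 0.0723).

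Of 14 genes of the TCA cycle, 1 rose, the succinyl-CoA synthetase subunit ScsbetaA at 0.30 (adjusted p = 0.0104), and 12 were higher in series 2. None of 7 ADP and phosphate carriers was called for diet, with 2 at an unadjusted p under 0.05, and 5 were higher in series 2. Of 18 regulators of mitochondrial genes 3 rose, among them the nuclear receptors Hnf4 at 0.27 (adjusted p = 0.00437) and ERR at 0.20, and mTTF at 0.12. In that list 2 fell, the mitochondrial DNA polymerase PolG1 by 0.38 (adjusted p = 0.021) and srl, the fly homolog of PGC-1, by 0.65 ± 0.23 (adjusted p = 0.036). Cytosolic ribosomal proteins, compared as another group of short abundant transcripts, had 0 of 80 higher and 1 lower for diet, 70 higher in series 2, and 75 with a higher diet effect in series 2. Of all genes, 4.86% had a higher diet effect in series 2. For diet within series 2, 75 of these 80 rose and 1 fell, with a median of 0.37, where 18.6% of all genes rose. Within series 1 none of the 80 rose and 1 fell, with a median of −0.21, where 0.417% of all genes were called. Mitochondrial ribosomal proteins had 1 of 71 higher and 2 lower for diet, 47 higher in series 2, and 17 with a higher diet effect in series 2. For diet within series 2, 23 of these 71 rose, with a median of 0.14, beside the same 18.6% of all genes.

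Most members are short and abundant. Of the 65, 40 were in the shortest 10% of all genes by length, taken from the ratio of counts to TPM, where the median of all genes was 0.12 for diet, 0.28 for diet within series 2, −0.02 for the series and 0.28 for the difference of the diet effects. By abundance 34 were in the highest 10%, with all-gene medians of 0.14 for diet and 0.22 for the series. In the shortest 10%, 14.9% of genes were called higher for diet and 31.3% for the series. In the most abundant 10% these shares were 21.0% and 55.9%, and among the members they were 20% and 93.8%. The members' series median of 0.71 and diet median of 0.26 were above those of both classes, and their interaction median of 0.27 was close to that of the shortest 10%. The part of length and abundance in these results was not tested.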

How the data were processed

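RNA of 48 abdominal fat body libraries was quantified with kallisto 0.44.0, per the submitters' processing notes. The authors deposited estimated counts and TPM per gene; the sources used here do not give a genome build, annotation or trimming. Estimated counts were rounded to whole numbers, filtered (edgeR filterByExpr, minimum count 10) and scaled by TMM, and TMM-scaled CPM are printed. edgeR 4.0.16 in R 4.3.3 gave quasi-likelihood F tests over 10070 genes with Benjamini-Hochberg adjustment and a threshold of 0.05. The diet model had time as a factor and no replicate term. The series model added replicate number and its interaction with diet, and the rhythm model had a 24 h cosine and sine per diet. Log2 scores used a prior count of 2. Alternatives used DESeq2 1.42.0, limma 3.58.1 on log2(TPM + 1), no filter, no ribosomal RNA or mitochondrial rows, marker scores as covariates, a replicate block, single series and each library left out. Scripts were tested on simulated data.

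Members and lists were chosen with earlier results of these data known. Named genes were all of complex II and, per other complex, those with the smallest p for diet (3), interaction, series and rhythm (2 each) and the extreme levels; up to 3 per list by diet p. Others (ND-B8, ND-ACP, UQCR-Q, COX8, ATPsynF, levy, RFeSP and the counted groups) were named after their values were seen. Promoter motifs were not analysed here. Counting intervals are not given, since estimated counts carry spread beyond counting error. Symbols were those of the files: 14051 of 14205 rows had one.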

Additional observations from a re-analysis of the deposited data

Results flagged for a closer look

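For 8 members the change with diet differed between the replicate series by the edgeR interaction test, in each case with a higher diet effect in series 2. They are 12.3% of the members tested, where 4.86% of all genes tested were called higher, and 75 of 80 cytosolic ribosomal protein genes. The differences of the log2 diet effects were 0.49 in ND-B14 (adjusted p = 0.0174), 0.48 in COX7C (0.016), 0.47 in UQCR-11 (0.0112), 0.44 in ND-SGDH (0.0289), 0.43 in UQCR-6.4 (0.0275), 0.41 in COX5B (0.0346), 0.41 in ATPsynB (0.019) and 0.38 in ND-MWFE (0.0429). In fits that left out 1 library, 6 of the 8 were called in all 48, COX5B in 37 and ND-MWFE in 24. In the same libraries the ovary marker score (mean log2 CPM) had medians of 4.59 and 4.2 on the control and restricted diets in series 1 and of 3.75 and 0.33 in series 2. With the ovary and gut scores in the model 0 members were called, where 2.29% of all genes were higher. The members' median difference was 0.16 in that fit and 0.27 in the main fit. The part of the ovary markers in the difference was not tested further.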

How the results depend on the processing

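The 13 diet calls were 13 with DESeq2 size factors, 11 without the low-count filter, 11 without ribosomal RNA and mitochondrial rows, 21 with the DESeq2 test and 24 without the time term. In that order, 10.6%, 6.09%, 10.4%, 12.6% and 10.6% of all genes were higher in these fits. The calls were 4 with limma on log2(TPM + 1), where 3.07% of all genes were higher. With the muscle score as a covariate 4 members were called, where 1.62% of all genes were higher. They were the same 4 genes (ND-49, ND-AGGG, ND-MLRQ and UQCR-11). With ovary and gut scores added the calls were 0, where 0.288% of all genes were higher. In fits of 1 series the calls were 0 in series 1 and 61 in series 2, and 38 without the 3 restricted series 1 libraries. Of all genes, 0.00993%, 20.9% and 13.5% were higher there. With the replicate number as a block 55 were called, among them SdhA, SdhC and SdhD and the core subunits ND-20, ND-23, ND-49, ND-51 and ND-75, where 16% of all genes were higher. Same-numbered libraries deviated together in 8 of 12 pairs at a correlation above 0.1 (range −0.163 to 0.465), so the numbers were not taken to pair the libraries within times. That check did not concern the difference in level between the series, for which 57.4% of all genes were called. Leaving out 1 library gave 8 to 25. The count was 8 without restricted ZT2 of series 2, 25, 22, 21 and 20 without restricted ZT20, ZT22, ZT14 and ZT16 of series 1, and 21 and 20 without control ZT20 and ZT12 of series 2. It was 17 without the library rich in ribosomal RNA.

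The 61 series calls, all higher in series 2, were 56 to 63 under every alternative but limma, again all higher. In those alternatives 17.5% to 25.2% of all genes were higher. With 1 library left out the series calls were 61 to 62. Limma on log2(TPM + 1) called 57, of which 53 were higher and 4 lower, where 9.02% of all genes were higher. The 8 interaction calls were 12 with DESeq2 size factors, 8 without the filter, 6 without the 3 libraries, 19 with the DESeq2 test, 14 without ribosomal RNA and mitochondrial rows, 28 with the muscle score, 1 with limma on log2(TPM + 1) and 0 with the ovary and gut scores. In that order, 6.34%, 3.32%, 3.42%, 8.03%, 6.53%, 9.32%, 1.42% and 2.29% of all genes were higher. Leaving out 1 library gave 6 to 24 interaction calls. The count was 24 without control ZT4 and 14 without control ZT24 of series 1, and 13 without restricted ZT10 of series 2. Rhythm calls were 0 throughout, except 1 on the restricted diet (ND-MLRQ) without restricted ZT14 of series 2. Limma on TPM moved the median of all genes by −0.10 for diet and interaction and −0.15 for the series. The cause of these changes was not tested.

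Estimates of named genes that changed sign were, for diet, with the ovary and gut scores: −0.11 in ND-B14, −0.0854 in ND-SGDH, −0.26 in ND-75, −0.23 in ND-39, −0.27 in ND-18, −0.27 in SdhB, −0.0697 in SdhC, −0.0115 in SdhD, −0.0288 in UQCR-14, −0.41 in UQCR-C2, −0.18 in UQCR-C1, −0.00050 in COX7B, −0.0683 in COX7C, −0.0384 in COX5B, −0.16 in COX5A, −0.24 in COX4, −0.069 in ATPsynCF6, −0.21 in ATPsynB, −0.19 in ATPsyngamma, −0.10 in sun, −0.0209 in muc, −0.0919 in Mpcp2, −0.11 in Mpcp1 and −0.0125 in sesB. With the muscle score they were −0.0331 in ND-75, −0.018 in ND-39, −0.0483 in ND-18, −0.10 in SdhB, −0.079 in UQCR-C2 and −0.0167 in COX4. With limma they were −0.0127 in SdhA, −0.0213 in SdhB, −0.0628 in UQCR-11L, −0.0127 in Idh3g and −0.00300 in sesB. In series 1 alone they were −0.00885 in UQCR-C2, −0.0118 in COX7C, −0.00972 in ATPsynB, −0.43 in mt:ND6 and −0.0212 in ox, and in series 2 alone −0.0868 in UQCR-11L, 0.11 in mt:ND2 and 0.40 in mt:ND4L. With 1 library left out UQCR-11L ran from −0.0163 (without restricted ZT14 of series 1) to 0.146. Series differences changed sign with limma, at −0.20 in ND-MLRQ, −0.0806 in ND-49, −0.18 in UQCR-11, −0.0448 in UQCR-6.4, −0.24 in COX7AL2 and −0.0204 in ATPsynbeta; with the ovary and gut scores, at −0.15 in ND-MLRQ, −0.0196 in UQCR-11 and −0.22 in COX7AL2; and with the muscle score, at −0.0428 in ND-MLRQ and −0.15 in COX7AL2.

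Depth limits the paralogs: 19 members had too few counts to be tested. With 1 library per diet, time and series, values at single times rest on single libraries.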
